A study of Homo sapiens with 5 samples.

Results

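The ATP-binding cassette (ABC) family was examined in TOV21G cells and in clones of these cells that had become resistant to an EZH2 inhibitor. Its members were taken as the protein-coding genes whose symbol runs from ABCA to ABCG followed by a number, and the TAP genes were left out. Of 30476 genes in the count table, 43 were members, out of 45 such symbols in the annotation; ABCB11 and ABCC12 were not analysed here. TOV21G is a cell line of an ovarian clear cell carcinoma in which ARID1A, a subunit of the SWI/SNF chromatin remodelers, is mutated. The resistant clones (EIR, for EZH2 inhibitor-resistant) were selected by stepwise exposure to the EZH2 inhibitor GSK126 at 5, 10, 15 and 20 uM. RNA-seq libraries were made from parental cells (1 library, untreated) and from EIR clones 3 and 4, each of which was profiled with and without GSK126 (4 libraries). How much GSK126 the treated cultures received, and for how long, is not given in the sources used here. Each clone is 1 derived line, and its 2 libraries count as repeats of that line alone.

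ABC transporters use the energy of ATP to move substrates across membranes, and a set of them in the plasma membrane exports drugs, conjugates and signaling molecules. Others carry cholesterol, phospholipids and other lipids, serve mitochondria, peroxisomes or lysosomes, or regulate potassium channels. ABCE1 and the ABCF proteins have the ATP-binding domains but no membrane-spanning part, and act on ribosomes. In cancer cells the family is best known for pumps such as ABCB1, ABCC1 and ABCG2, which can lower the concentration of many drugs inside the cell.

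Total read counts per library ranged from 25479238 to 30764963, and between 15588 and 16432 genes had at least 10 counts. ABC members took 0.127% of all counts in the parental library and 0.156% to 0.173% in the EIR libraries. Of the 43 members, 26 had at least 10 counts in the parental library, against 31 to 34 in each EIR library. PAX8, a transcription factor of Mullerian epithelium, and the keratins KRT8 and KRT18 were expressed in all 5 libraries, with at least 3083 normalized counts, whereas SOX17 was at or near 0. The keratin KRT7 ranged from 81.6 to 194 normalized counts and MUC16 from 5.04 to 45.5. NAPSA, a further marker, was low, with 2.01 in parental cells, 49.1 and 49.4 in clone 3 and 6.10 and 4.23 in clone 4. The epithelial adhesion gene EPCAM had 401 normalized counts in parental cells, 394 and 492 in clone 3, but 0 and 1.06 in clone 4, so the clones differed in this marker. Leukocyte and endothelial markers did not exceed 27.2 normalized counts, and fibroblast markers ranged from 0 to 91.7. Because the RNA is from bulk cultures, a change in the share of cells that express a gene and a change in its RNA per cell cannot be told apart. With 1 parental library, the spread between parental cultures is unknown.

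The sequences before the start sites of 4 members are shown as examples of members that differed between the clones (ABCB1), rose in both (ABCA12 and ABCC2) or fell in both (ABCA3). Each line gives the 250 bases upstream of the start of the gene's representative transcript in GENCODE release 44 on GRCh37, read 5′ to 3′ on the strand of the gene. Capitals mark CCAAT boxes (the letters CCAAT) and GC boxes (the letters GGGCGG), searched on both strands.
ABCB1 (chr7:87230201-87230450, minus strand): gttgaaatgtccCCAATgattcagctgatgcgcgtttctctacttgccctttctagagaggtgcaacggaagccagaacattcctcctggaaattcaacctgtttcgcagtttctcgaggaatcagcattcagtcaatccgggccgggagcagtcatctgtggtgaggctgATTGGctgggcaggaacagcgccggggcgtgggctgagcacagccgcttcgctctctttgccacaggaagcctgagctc
ABCA12 (chr2:216003350-216003599, minus strand): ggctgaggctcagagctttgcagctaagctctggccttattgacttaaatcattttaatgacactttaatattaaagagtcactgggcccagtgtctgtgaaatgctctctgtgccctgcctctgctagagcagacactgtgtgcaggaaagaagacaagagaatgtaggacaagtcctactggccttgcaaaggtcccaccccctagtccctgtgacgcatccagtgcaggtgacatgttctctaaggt
ABCC2 (chr10:101542147-101542396, plus strand): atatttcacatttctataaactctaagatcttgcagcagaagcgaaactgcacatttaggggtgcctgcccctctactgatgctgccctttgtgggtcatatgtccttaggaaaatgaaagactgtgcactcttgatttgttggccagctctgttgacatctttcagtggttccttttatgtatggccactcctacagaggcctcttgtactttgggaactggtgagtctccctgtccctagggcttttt
ABCA3 (chr16:2390730-2390979, minus strand): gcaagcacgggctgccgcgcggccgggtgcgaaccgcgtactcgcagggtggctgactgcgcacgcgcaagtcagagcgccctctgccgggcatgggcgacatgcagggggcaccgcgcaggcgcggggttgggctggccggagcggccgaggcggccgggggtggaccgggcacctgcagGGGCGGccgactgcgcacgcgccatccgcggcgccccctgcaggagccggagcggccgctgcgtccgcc

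The ABCB1 window held 2 CCAAT boxes and 0 GC boxes. The ABCA12 and ABCC2 windows held neither motif, and their CpG observed over expected ratios were 0.0672 and 0.0770, against a median of 0.791 over the windows of 16662 protein-coding genes. ABCA3 had 1 GC box and a CpG ratio of 0.979. Over all windows 34.3% held a CCAAT box and 65.1% a GC box. Among the members, 10 of 43 windows held a CCAAT box and 24 of 43 a GC box. These matches describe the letters of the windows and no binding was measured.

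Levels of different members were compared as normalized counts per kilobase of exon. The highest levels in parental cells were those of ABCF1 (982), ABCF2 (820) and ABCE1 (784), which act in translation, followed by the lipid transporter ABCA3 (587) and the pump ABCC4 (455). In EIR cells the order was led by ABCE1 (1747 ± 259, SD, n = 4), ABCF1 (1238 ± 129), ABCF2 (1134 ± 153), ABCC4 (752 ± 76.9) and the peroxisomal ABCD3 (591 ± 46.9). The EIR means of ABCF1 and ABCF2 lay within their spread of each other, although ABCF1 was higher than ABCF2 in every library. ABCA3 went from rank 4 in parental cells to rank 6 in clone 3 and 14 in clone 4. ABCB1 had rank 27 in parental cells, 9 in clone 3 and 27 in clone 4, and ABCA12 had rank 20 in parental cells, 14 in clone 3 and 9 in clone 4. The 4 cytosolic proteins together made up 48.4% of the summed level of the family in parental cells but 54.9% to 60.6% in EIR libraries. For the 17 lipid and sterol transporters this share was 14.3% in parental cells but 4.78% to 6.66% in EIR libraries. ABCA3 alone held 587 of their summed level of 819 in parental cells. In EIR libraries ABCA3 held 93.7 to 275 of sums between 348 and 513. The median log2 fold change of the 11 tested lipid and sterol transporters was 2.21 in EIR against parental cells, so the lower share does not describe the class. At the other end, 7 members (ABCA8, ABCB4, ABCC11, ABCD2, ABCG4, ABCG5 and ABCG8) had 3 counts or fewer in every library, and ABCC8 reached 5.

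**Figure D1:**
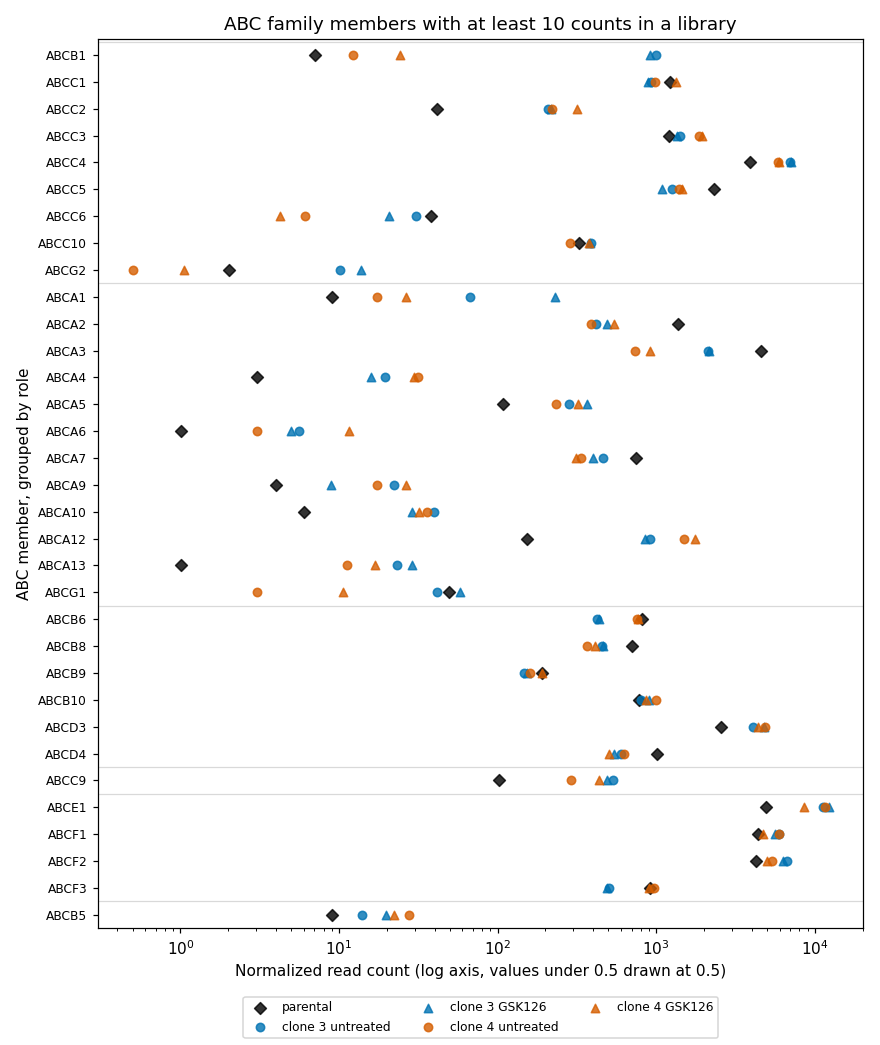
Normalized read counts (log axis) of 33 members that reached 10 counts in at least 1 library, grouped by role from pumps at the top to cytosolic proteins and ABCB5 at the bottom, with 1 point per library and values under 0.5 drawn at 0.5. ABCB1 lies at 991 and 915 in clone 3 and at or below 24.3 in the other 3 libraries, whereas most other members differ far less between libraries.

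The first comparison asked how the family differed between EIR and parental cells. Of the 33 members that received an adjusted p in DESeq2, 17 passed 0.05, of which 10 were higher and 7 lower in the 4 EIR libraries, where 25.5% of all genes tested passed (12.4% higher, 13.2% lower). The median log2 fold change was 0.33 over the members tested and 0.00 over all genes. This fit took the 4 EIR libraries as separate replicates, although they come from 2 clones. With a correction of the counts for GC content 11 members passed, 8 higher and 3 lower, against 19.5% of all genes (10.2% higher, 9.24% lower). The quasi-likelihood test of edgeR called 10 of 35 members (7 higher, 3 lower), against 11.1% of all genes (4.39% higher, 6.73% lower). ABCA12, ABCC2, ABCC9, ABCE1 and ABCA2 passed in each of the 11 alternatives tried.

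Each clone was then compared with the parental library in a single fit, and both comparisons share that library. In clone 3, 18 of 33 members passed (11 higher, 7 lower), where 29.2% of all genes passed (14.7% higher, 14.5% lower), and the median log2 change of the members was 0.24. In clone 4, 18 of 33 passed (9 higher, 9 lower), where 32.9% of all genes passed (14.7% higher, 18.3% lower), and the median was 0.27. After GC correction the clone 4 calls were 9 higher and 5 lower, where 28.2% of all genes passed (13.8% higher, 14.4% lower). Between the clones, 7 of 35 members passed, with 3 higher and 4 lower in clone 4, where 9.81% of all genes passed (3.3% higher, 6.52% lower). These were ABCA12, ABCB6 and ABCF3 (higher in clone 4) and ABCA1, ABCA3, ABCB1 and ABCG1 (lower in clone 4). Tests against parental cells used the spread between the untreated and treated library of a clone, with 2 residual degrees of freedom. The test between the clones had treatment as covariate. Its spread is what remains after a treatment shift common to both clones, with 1 residual degree of freedom.

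**Figure D2:**
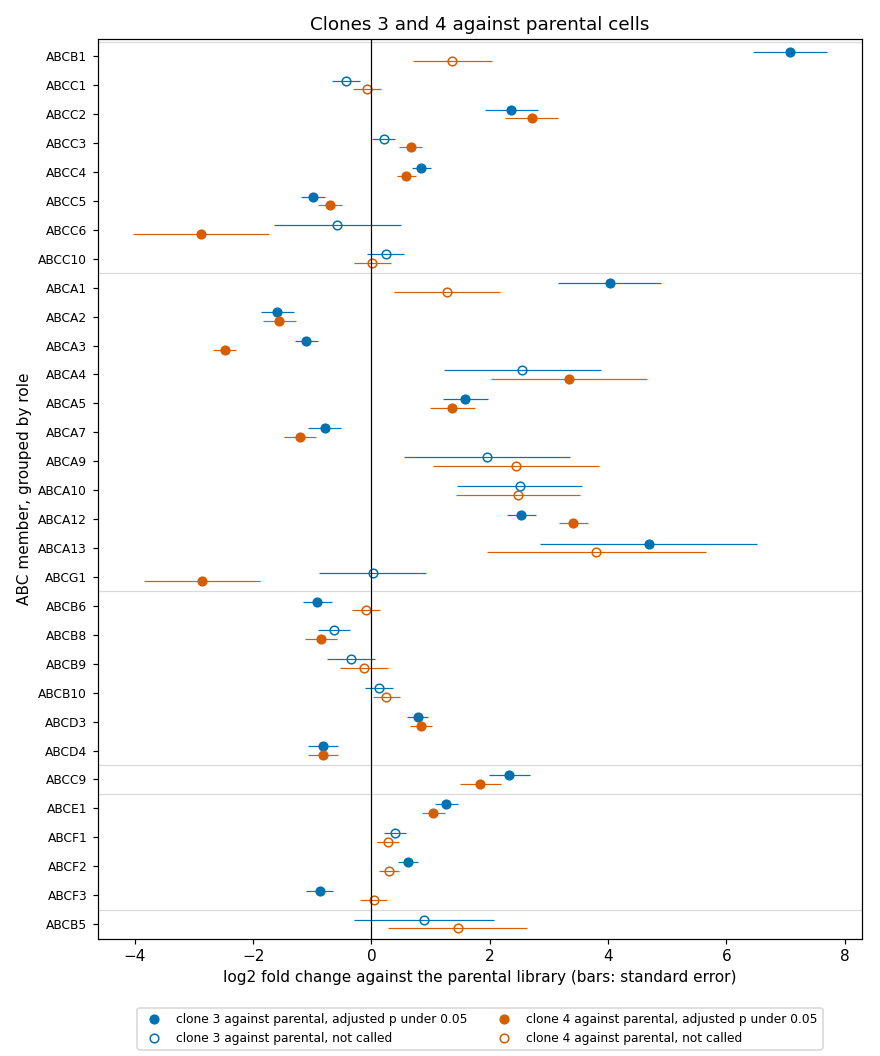
log2 change of 31 tested members in clone 3 (blue) and clone 4 (orange) against the parental library, with standard errors from DESeq2; filled points passed an adjusted p of 0.05. ABCA12, ABCC2 and ABCC9 lie to the right and ABCA2 and ABCA3 to the left in both clones, while ABCB1 and ABCA1 are filled in clone 3 and ABCG1 and ABCC6 in clone 4.

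Of the 8 multidrug efflux pumps tested, 3 were higher and 1 lower in clone 3 than in parental cells, where 14.7% of all genes were higher and 14.5% lower. In clone 4, 3 were higher and 2 lower, against 14.7% and 18.3% of all genes. The widest difference among them was that of ABCB1. ABCB1 (ENSG00000085563, chromosome 7, 87132333 to 87342639, minus strand, GRCh37) encodes P-glycoprotein, which exports a broad range of drugs. It had a normalized count of 7.05 in parental cells, 991 and 915 in untreated and GSK126-treated clone 3, and 12.2 and 24.3 in untreated and treated clone 4. The 2 clone 3 libraries thus lay above all others, and the clone 4 libraries were closer to parental cells than to clone 3. The mean was 135 times the parental value in clone 3 (log2 fold change 7.08, SE 0.62, DESeq2 adjusted p 7.51e-28) and 2.59 times in clone 4 (1.37, SE 0.67, adjusted p 0.103). ABCB1 was lower in clone 4 than in clone 3 by a log2 change of -5.74 (SE 0.38, DESeq2 adjusted p 1.42e-49). Its calls in clone 3 against parental cells and between the clones held in every alternative run. As a single group the EIR libraries had a mean of 486 ± 540 (SD, n = 4), and the comparison with parental cells did not pass (DESeq2 adjusted p 0.0602).

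Genes around ABCB1 did not all move with it. RUNDC3B lies on the opposite strand (87256864 to 87461611) and overlaps ABCB1 over 85776 bases. The overlap is with longer annotated transcripts, since the representative start of ABCB1 shown above lies outside RUNDC3B. RUNDC3B had 1 count in the parental library, 77 and 74 in clone 3, and 7 and 3 in clone 4. The ratio of clone 3 to parental was 71.7, with a 95% exact interval of 12.7 to 2849 that covers counting error only. Whether the counting used strand is not stated, so reads from the shared stretch cannot be assigned to ABCB1 or RUNDC3B with certainty. ABCB4, the phosphatidylcholine transporter of bile 22.6 kb away, had 0 or 1 count in every library. TMEM243, 282 kb away, had normalized counts of 429 in parental cells, 258 and 258 in clone 3 and 84.4 and 96.3 in clone 4, and fell in clone 4 against parental cells by a log2 change of -2.25 (SE 0.36, DESeq2 adjusted p 1.11e-08). SLC25A40, on the other side, ranged from 575 to 725 normalized counts and did not pass in DESeq2 in either clone. It passed in both after GC correction (adjusted p 0.000668 in clone 3 and 0.00426 in clone 4). DBF4 rose in clone 3 (log2 fold change 0.75, DESeq2 adjusted p 0.00196) and clone 4 (0.59, adjusted p 0.0181). Both DBF4 calls were lost after GC correction (0.169 and 0.576). DMTF1 and CROT passed in clone 4 only (0.60, DESeq2 adjusted p 0.00854, and 0.66, adjusted p 0.0256). The CROT call was lost after GC correction (0.911).

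**Figure D3:**
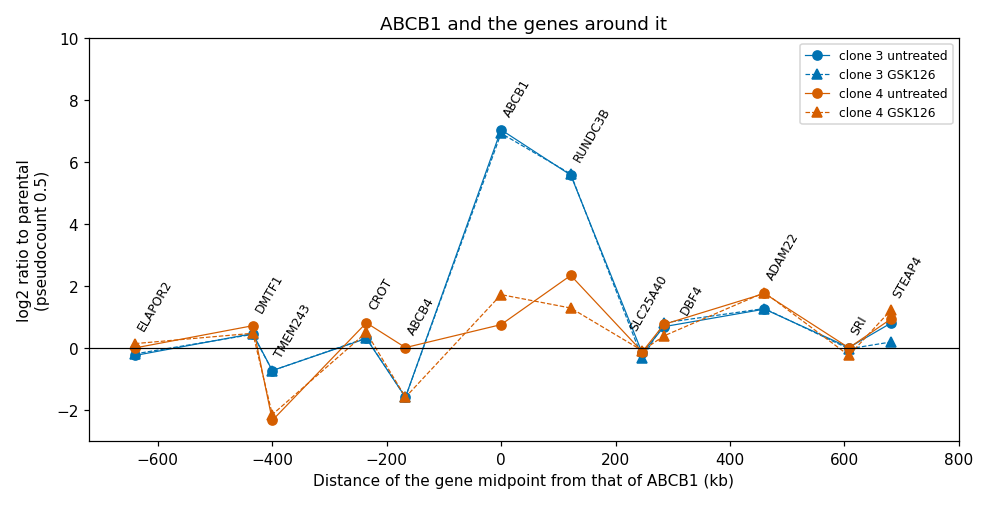
log2 ratio of each EIR library to the parental library (pseudocount 0.5) for expressed genes and ABCB4 around ABCB1, placed by the distance between gene midpoints in kb. The ratio is 7.04 and 6.92 for ABCB1 and 5.57 and 5.61 for RUNDC3B in clone 3, while SLC25A40 lies near 0 and TMEM243 near -2.34 and -2.15 in clone 4; the ABCB4 ratios rest on 0 or 1 count.

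ABCC2 (MRP2), an apical pump for glutathione and glucuronide conjugates, rose in both clones. Its normalized counts were 41.3 in parental cells, 207 and 218 in untreated and treated clone 3, and 221 and 318 in untreated and treated clone 4, so every EIR library lay above the parental one. The EIR mean was 241 ± 51.8 (SD, n = 4), a log2 change of 2.55 (SE 0.43, DESeq2 adjusted p 9.37e-08). ABCC4 (MRP4), which exports cyclic nucleotides and prostanoids, was the most abundant pump, with 3929 normalized counts in parental cells, 6989 and 7128 in clone 3, and 5902 and 5925 in clone 4. It rose in clone 3 by 0.85 (SE 0.16, DESeq2 adjusted p 1.69e-06) and in clone 4 by 0.59 (SE 0.16, adjusted p 0.00123) on the log2 scale. The clone 4 call on ABCC4 was lost without untreated clone 3 (adjusted p 0.0519) or treated clone 3 (0.0508). ABCC5 (MRP5), another exporter of cyclic nucleotides, moved the other way, from 2324 in parental cells to 1261 and 1089 in clone 3 and 1395 and 1456 in clone 4. Its log2 fold change was -0.98 (SE 0.20, DESeq2 adjusted p 1.18e-05) in clone 3 and -0.71 (SE 0.20, adjusted p 0.00228) in clone 4.

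ABCC3 (MRP3), a basolateral pump for conjugates, had 1200 normalized counts in parental cells, 1409 and 1354 in clone 3 and 1851 and 1941 in clone 4. The clone 4 value was 0.66 higher on the log2 scale (SE 0.19, DESeq2 adjusted p 0.00311), a call lost without untreated clone 3 (0.0612) or treated clone 3 (0.0605). In clone 3 ABCC3 differed by 0.20 (SE 0.19, DESeq2 adjusted p 0.492), but passed after GC correction (log2 fold change 0.50, adjusted p 0.0196). Between the clones it missed the threshold in DESeq2 (adjusted p 0.132) but passed in edgeR (adjusted p 0.0425) and after GC correction (adjusted p 0.0272). ABCC1 (MRP1), an exporter of glutathione conjugates, ranged from 891 to 1338 normalized counts, ABCC10 from 288 to 391, and neither passed in any comparison. ABCG2 (BCRP), a pump for drugs and urate, was low throughout, with 2 counts in the parental library, 11 and 14 in clone 3 and 0 and 1 in clone 4. Clone 3 counts were 23.0 times those of clone 4 (95% exact interval 3.77 to 946, counting error only). The difference in ABCG2 between the clones passed in edgeR (adjusted p 0.0340) but not in DESeq2 (adjusted p 0.215). ABCC6 had 38 counts in parental cells, 33 and 21 in clone 3 and 6 and 4 in clone 4. Its clone 4 call (log2 fold change -2.89, SE 1.15, DESeq2 adjusted p 0.0389) was lost without any 1 of the EIR libraries (adjusted p 0.111 to 0.191), and its reads are shared with near-identical pseudogenes.

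Per kilobase, ABCC4 made up 46.6% of the summed level of the 10 pumps in parental cells, against 54.4% to 59.5% in EIR libraries. ABCC5 went from 20.9% in parental cells to between 6.90% and 10.4%. ABCB1 contributed 0.112% in parental cells, 11.0% and 10.3% in untreated and treated clone 3, and 0.161% and 0.300% in untreated and treated clone 4. Even in clone 3 the ABCB1 level (154 and 143 per kb) stayed below that of ABCC4 (810 and 826).

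Of the 17 lipid and sterol transporters, 11 received an adjusted p against parental cells, and their calls went both ways. In clone 3, 4 were higher and 3 lower, where 14.7% and 14.5% of all genes were, and in clone 4, 3 were higher and 4 lower, against 14.7% and 18.3%. ABCA12, which loads lipids into the lamellar granules of keratinocytes, rose in both clones. The ABCA12 gene (ENSG00000144452, chromosome 2, 215796266 to 216003349, minus strand, GRCh37) was at 152 normalized counts in parental cells, 914 and 845 in clone 3 and 1486 and 1747 in clone 4. All EIR libraries lay above parental and both clone 4 libraries above both clone 3 libraries. The log2 fold change was 2.53 (SE 0.25, DESeq2 adjusted p 1.29e-22) in clone 3 and 3.41 (SE 0.25, adjusted p 2.61e-41) in clone 4. Clone 4 exceeded clone 3 by 0.87 (SE 0.21, DESeq2 adjusted p 0.000599), which was lost without treated clone 3 (adjusted p 0.0696). Among its neighbors, BARD1 ranged from 1790 to 2572 normalized counts and passed in no DESeq2 comparison of the clones or of a clone with parental cells, but its difference between the clones passed in edgeR (adjusted p 0.0366) and after GC correction (adjusted p 0.0471). FN1, the fibronectin gene 222 kb away, had 10.1 in parental cells, against 83.3 to 164 in EIR libraries. IKZF2, 1779 kb away, rose in clone 3 (3.34, DESeq2 adjusted p 5.65e-08) and clone 4 (4.16, adjusted p 3.49e-12). MREG (1.21, DESeq2 adjusted p 8.1e-06) and ERBB4 (1.81, adjusted p 1.45e-18) were higher in clone 4 than in clone 3. ERBB4 also fell in clone 3 against parental cells (-1.62, DESeq2 adjusted p 2.9e-15). ATIC passed in none of these DESeq2 comparisons.

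ABCA3, which moves phospholipids into lamellar bodies of lung cells, showed the opposite pattern. ABCA3 (ENSG00000167972, chromosome 16, 2325882 to 2390747, minus strand) was at 4579 normalized counts in parental cells, 2130 and 2145 in clone 3, and 731 and 909 in clone 4. The 3 groups did not overlap, and parental cells were highest. It fell in clone 3 (log2 fold change -1.10, SE 0.20, DESeq2 adjusted p 4.26e-07), fell further in clone 4 (-2.48, SE 0.20, adjusted p 1.74e-33), and differed between the clones (-1.40, SE 0.20, adjusted p 1.6e-10), in every alternative run for these 3 comparisons. Of its neighbors, ECI1 fell in both clones (log2 fold change -1.13 and -1.34), while RNPS1, 7.48 kb away, stayed between 4359 and 4878 normalized counts.

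ABCA2, a lipid transporter of endolysosomes, was reduced to a similar extent in both clones. Its normalized counts were 1371 in parental cells, 418 and 491 in clone 3 and 390 and 543 in clone 4, so the clones overlapped. The log2 fold change was -1.59 (SE 0.27, DESeq2 adjusted p 1.35e-07) in clone 3 and -1.56 (SE 0.27, adjusted p 2.37e-07) in clone 4. ABCA7, a phospholipid transporter related to ABCA1, had 746 in parental cells, 460 and 402 in clone 3 and 336 and 310 in clone 4. It fell in clone 4 by a log2 change of -1.21 (SE 0.28, DESeq2 adjusted p 9.91e-05), and by -0.79 in clone 3 (SE 0.27, adjusted p 0.0167). After GC correction neither ABCA7 call was kept (adjusted p 0.0515 in clone 4 and 0.381 in clone 3), and the clone 3 call was lost without untreated (0.154) or treated clone 3 (0.323).

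The cholesterol exporters ABCA1 and ABCG1 differed between the clones. ABCA1, which loads cholesterol and phospholipid onto apolipoprotein A-I, had 9.06 normalized counts in parental cells, 66.7 and 229 in untreated and treated clone 3, and 17.3 and 26.4 in untreated and treated clone 4. The clone 3 libraries were higher than all others but far apart from each other. The clone 3 rise (log2 fold change 4.03, SE 0.87, DESeq2 adjusted p 4.28e-05) was lost without treated clone 3 (adjusted p 0.178), and so was the difference between the clones (-2.57, SE 0.57, adjusted p 0.000179), which became 0.588. That difference was also lost without treated clone 4 (0.130) or untreated clone 4 (0.213). ABCG1, which passes cholesterol to high-density lipoprotein, had 49.4 normalized counts in parental cells, 41.7 and 58.3 in clone 3 and 3.05 and 10.6 in clone 4. Clone 4 lay below all other libraries, with a log2 fold change against clone 3 of -3.05 (SE 0.94, DESeq2 adjusted p 0.0167). Leaving out treated clone 3 (adjusted p 0.472), untreated clone 3 (0.188) or untreated clone 4 (0.0751) ended this call. SLC37A1, 199 kb from ABCG1, had 85.6 in parental cells, 210 and 245 in clone 3 and 11.2 and 23.3 in clone 4, and differed between the clones in the same direction (-3.79, DESeq2 adjusted p 5.86e-12). RSPH1, 175 kb from ABCG1, did not pass in DESeq2 (-2.21, adjusted p 0.123) but passed in edgeR (adjusted p 0.0343). The neighbors ZBTB21, C2CD2, PRDM15 and PDE9A did not pass between the clones (DESeq2 adjusted p 0.625 to 0.980).

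The ABCA5, ABCA6, ABCA8, ABCA9 and ABCA10 genes lie side by side on chromosome 17 (66863430 to 67323385). ABCA5 had 108 normalized counts in parental cells, 282 and 364 in clone 3 and 234 and 323 in clone 4, and rose in both clones (log2 fold change 1.58, SE 0.38, DESeq2 adjusted p 0.000263, and 1.37, SE 0.38, adjusted p 0.00184). The clone 3 call was lost without treated clone 3 (0.0814), the clone 4 call without treated clone 4 (0.0664), and the clone 4 call also after GC correction (0.115). ABCA10 had 6 counts in the parental library and 29 to 43 in EIR libraries, ABCA9 had 4 and 9 to 25, and ABCA6 had 1 and 3 to 11. ABCA8 was at the floor of detection, and the ABCA6 and ABCA9 values rest on few reads. ABCA5 was the only one of these 5 genes to pass within each clone in DESeq2. The edgeR test also called ABCA10 in clone 3 (adjusted p 0.0172) and clone 4 (adjusted p 0.0168). In DESeq2 with GC correction ABCA10 did not pass in clone 3 (adjusted p 0.163) or clone 4 (0.164). ABCA10 and ABCA5 also overlap on the same strand, and the division of their shared reads is uncertain.

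ABCA13 and ABCA4 were close to absent in parental cells. ABCA13 had 1 count in the parental library, 25 and 29 in clone 3 and 11 and 16 in clone 4. The ratio to parental was 25.6 in clone 3 (95% exact interval 4.41 to 1031) and 13.9 in clone 4 (2.29 to 569). ABCA4, the retinoid transporter of photoreceptors, had 3 counts in the parental library, 21 and 16 in clone 3 and 31 and 28 in clone 4, a ratio of 5.85 (1.85 to 29.7) and 10.1 (3.30 to 50.5). These intervals cover counting error only. In DESeq2, ABCA13 passed in clone 3 (adjusted p 0.0388) and ABCA4 in clone 4 (adjusted p 0.0369), whereas edgeR called both genes in both clones (adjusted p 0.00998 to 0.0330). Leaving out any 1 of the EIR libraries ended both DESeq2 calls (adjusted p 0.0570 to 0.238 for ABCA13 and 0.114 to 0.167 for ABCA4).

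Of the 8 organelle transporters tested against parental cells as one EIR group, 1 was higher and 3 lower, where 12.4% of all genes were higher and 13.2% lower. After GC correction 0 were higher and 1 lower, against 10.2% and 9.24% of all genes. ABCD3, which imports fatty acids into peroxisomes, had 2579 normalized counts in parental cells, 4069 and 4796 in clone 3 and 4824 and 4399 in clone 4, all above parental (log2 fold change 0.81, SE 0.18, DESeq2 adjusted p 0.000133). This call was lost after GC correction (adjusted p 0.123, log2 fold change 0.31). ABCD4, which takes part in the export of cobalamin from lysosomes, had 1005 in parental cells, 597 and 541 in clone 3 and 629 and 505 in clone 4. All EIR libraries lay below the parental one (-0.82, SE 0.22, DESeq2 adjusted p 0.00207), but the call was lost after GC correction (0.0923) and with both libraries of each clone summed (0.0902).

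ABCB8, a mitochondrial transporter, was lower in EIR cells by a modest margin. Its normalized counts were 707 in parental cells, 452 and 460 in clone 3 and 368 and 414 in clone 4. As one EIR group, ABCB8 had a log2 change of -0.74 (SE 0.24, DESeq2 adjusted p 0.0106), a call lost after GC correction (log2 change -0.32, adjusted p 0.289), in edgeR (0.0610), and without untreated clone 3 (0.0541) or untreated clone 4 (0.0609). ABCB6, a porphyrin transporter, separated the clones, with 812 in parental cells, 426 and 435 in clone 3 and 753 and 765 in clone 4. Clone 4 exceeded clone 3 by 0.81 (SE 0.24, DESeq2 adjusted p 0.00997), a call lost without untreated (0.164) or treated clone 3 (0.147). ABCB9 and ABCB10 passed in no comparison.

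Of the 2 sulfonylurea receptors, which regulate ATP-sensitive potassium channels, ABCC8 had at most 5 counts and ABCC9 rose in both clones. ABCC9 (ENSG00000069431, chromosome 12, 21950323 to 22095477, minus strand, GRCh37) encodes SUR2 and had 102 normalized counts in parental cells, 532 and 492 in clone 3 and 292 and 438 in clone 4. The EIR mean was 439 ± 105 (SD, n = 4), with all 4 libraries above parental (log2 fold change 2.11, SE 0.41, DESeq2 adjusted p 7.35e-06). KCNJ8, which encodes the pore subunit Kir6.1 that assembles with SUR2, lies 21.8 kb from ABCC9. It had 2.01 normalized counts in parental cells, 868 and 971 in clone 3 and 174 and 154 in clone 4. On 2 parental counts, the ratio to parental was 456 in clone 3 (95% exact interval 126 to 3767) and 81.6 in clone 4 (22.4 to 677), for counting error only. KCNJ8 differed between the clones (log2 fold change -2.49, DESeq2 adjusted p 7.6e-20), whereas ABCC9 missed the threshold there (-0.52, SE 0.29, adjusted p 0.332). KCNJ11, the pore subunit Kir6.2 that pairs with ABCC8, went from 49.4 normalized counts in parental cells to between 9.26 and 16.9 in EIR libraries. With EIR as one group it passed narrowly (log2 fold change -1.89, SE 0.75, DESeq2 adjusted p 0.0464). That call was lost after GC correction (0.189) and in edgeR (0.0546). KCNJ11 did not pass in clone 3 (DESeq2 adjusted p 0.119) or clone 4 (0.235).

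Of the cytosolic proteins, which have no transport function, ABCE1, ABCF1 and ABCF2 were the most abundant members per kilobase. ABCF3 had rank 10 in parental cells, 13 in clone 3 and 8 in clone 4. ABCE1, which recycles ribosomes, had 4902 normalized counts in parental cells, 11282 and 12235 in clone 3 and 11617 and 8572 in clone 4. All EIR libraries exceeded the parental one, with a mean of 10926 ± 1619 (SD, n = 4) and a log2 change of 1.16 (SE 0.25, DESeq2 adjusted p 8.15e-05). ABCE1 overlaps OTUD4 and ANAPC10 on the opposite strand, which limits the assignment of reads there. ABCF2 had 4229 in parental cells, 6688 and 6316 in clone 3 and 5398 and 4990 in clone 4, and passed in clone 3 (0.62, SE 0.16, DESeq2 adjusted p 0.00111), though not without untreated (0.145) or treated clone 3 (0.0877). In clone 4 it missed the threshold (DESeq2 adjusted p 0.163) but passed after GC correction (adjusted p 0.00131). After GC correction ABCF1 and ABCF2 also passed with EIR as one group (adjusted p 0.0287 and 0.0113). ABCF3 followed another pattern, with 907 in parental cells, 503 and 487 in clone 3 and 967 and 895 in clone 4. Parental and clone 4 values of ABCF3 lay together, and clone 4 exceeded clone 3 by 0.90 (SE 0.23, DESeq2 adjusted p 0.00139), a call lost without treated clone 3 (0.0745). Of its neighbors, DVL3, 12.5 kb from ABCF3, differed between the clones in the same direction (0.81, DESeq2 adjusted p 0.00352), and so did EIF2B5 (0.59, adjusted p 0.0316). AP2M1, which lies nearer at 1.88 kb, did not pass (0.23, DESeq2 adjusted p 0.531). On the other side, VWA5B2 (DESeq2 adjusted p 0.884) and ALG3 (0.662) did not pass either.

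The EIR libraries were next used to ask whether GSK126 changed the family within resistant cells. No member passed an adjusted p of 0.05 (0 of 42 in DESeq2 and 0 of 34 in edgeR), where 0.00335% of all genes passed in DESeq2 and 0% in edgeR. At an unadjusted p under 0.05 there were 0 members with either tool, against 0.392% of all genes in DESeq2 and 0.518% in edgeR. With the clone as a replicate block, which pairs each treated library with the untreated library of its clone, 0 members passed after adjustment in DESeq2 or edgeR, against 0.0134% and 0.00602% of all genes. At an unadjusted p under 0.05 this block gave 1 of 42 members in DESeq2 (ABCA1, unadjusted DESeq2 p 0.0261), against 0.945% of all genes, and 3 of 34 in edgeR (ABCA1, ABCA2 and ABCA5), against 4.27%. Over the 33 members averaging at least 10 normalized counts, the median log2 ratio of treated to untreated was -0.02 in clone 3 and 0.06 in clone 4. An at least 2-fold difference was seen for 2 of the 33 in clone 3, where 3.05% of all genes reached it, and for 1 of the 33 in clone 4, where 7.91% did. These were ABCA1 (1.77 on the log2 scale) and ABCA9 (-1.27) in clone 3, and ABCG1 (1.64) in clone 4. ABCA9 and ABCG1 rest on few reads, from 24 to 9 counts and from 3 to 10 counts. ABCB1 differed by -0.11 in clone 3 and by 0.97 in clone 4, there from 12 to 23 counts. With 2 treated and 2 untreated libraries, differences of this size were not called, and the lack of a call does not show that they are absent.

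**Figure D4:**
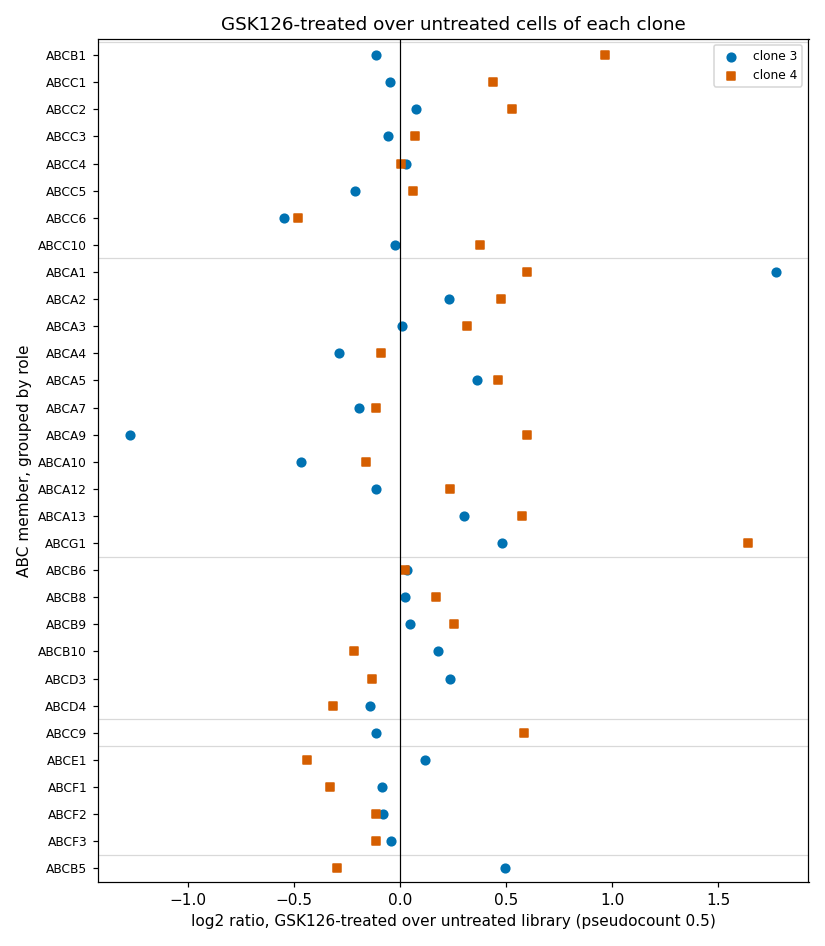
log2 ratio of the GSK126-treated to the untreated library (pseudocount 0.5) in clone 3 (circles) and clone 4 (squares) for 31 members averaging at least 10 normalized counts, grouped by role. Most points lie near 0, with ABCA1 at 1.77 and ABCA9 at -1.27 in clone 3 and ABCG1 at 1.64 in clone 4.

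The direction of change moved with the base composition of the transcripts. Members called higher in EIR cells had a median transcript GC content of 41.2% (37.1% to 51.2%), and those called lower one of 60.3%. Across the 33 tested members Spearman's rho between GC content and log2 fold change was -0.72, and across all 15788 genes with both values it was -0.39. Genes are not independent replicates, and all points share the same parental library. After GC correction of the counts the rho over the members was -0.62. ABCA5, ABCA10, ABCD3 and ABCA13 lost their calls with EIR as one group under that correction on the low-GC side, and ABCA3, ABCA7, ABCB8 and ABCD4 on the high-GC side. The part of GC content in these differences was not tested further.

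**Figure D5:**
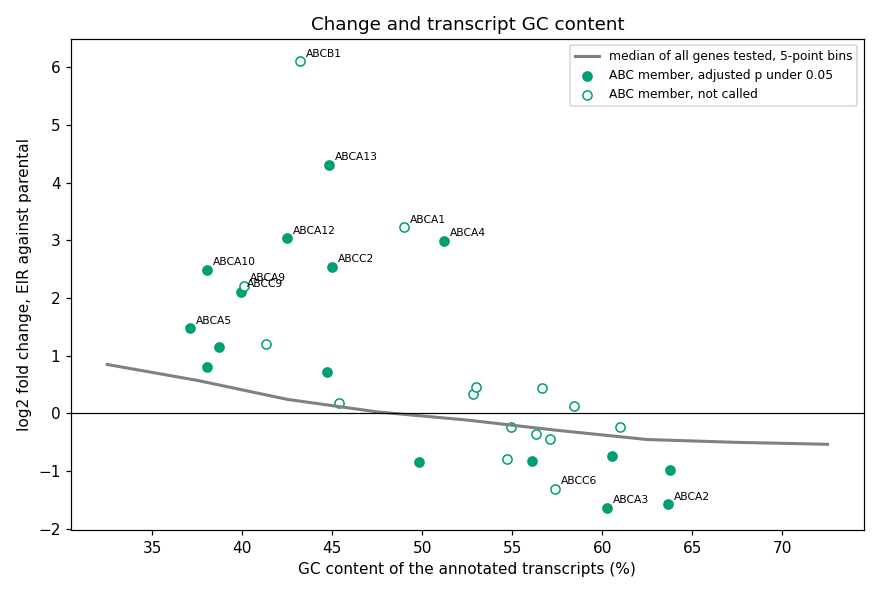
log2 change of EIR against parental cells for 31 tested members against the GC content of their annotated transcripts (%), with the median of all genes tested in bins of GC content as a gray line and members with an adjusted p under 0.05 filled. Filled points above 0 lie between 37.1% and 51.2% GC and those below 0 between 49.8% and 63.7%, and the gray line falls from 0.85 to -0.53.

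Genes that work with ABC transporters were counted in 4 lists, against a background of 12.4% of all genes higher and 13.2% lower in EIR cells. Of 15 tested transcriptional regulators of ABC genes, 3 were higher and 5 lower in EIR cells (median log2 fold change -0.35, against 0.00 over all genes). SREBF2, a regulator of sterol synthesis, fell from 3138 normalized counts in parental cells to 1154 ± 95.4 (SD, n = 4, log2 fold change -1.44, SE 0.19, DESeq2 adjusted p 6.32e-12). SREBF1 fell from 1942 to 721 ± 141 (-1.43, SE 0.30, DESeq2 adjusted p 4.1e-05). NFE2L2, which drives genes of the antioxidant response, rose from 1433 to 2426 ± 94.6 (0.76, SE 0.15, DESeq2 adjusted p 1.34e-05). ARNT fell from 2643 to 1698 ± 91.8 (-0.64, SE 0.16, adjusted p 0.00103).

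Of 16 tested protein partners, 3 were higher and 4 lower (median -0.06), where 12.4% and 13.2% of all genes were. PDZK1, a scaffold that binds ABCC2 and other apical transporters, had 24.2 normalized counts in parental cells, 1005 and 1298 in clone 3 and 547 and 486 in clone 4 (log2 fold change 5.11, SE 0.64, DESeq2 adjusted p 1.73e-13). NHERF1, another scaffold of apical transporters, fell from 867 to 435 ± 44.8 (DESeq2 adjusted p 0.000253), a call lost after GC correction (0.0645). PEX3, a peroxisomal docking factor for membrane proteins such as ABCD3, rose from 594 to 1040 ± 67.6 (0.81, SE 0.19, adjusted p 0.000315), a call lost after GC correction (0.403). KCNJ8 is described above. APOE, an acceptor of exported cholesterol, did not pass between EIR and parental cells but was lower in clone 4 than in clone 3 (-3.80, DESeq2 adjusted p 5.55e-36), with 338 in parental cells, 967 and 1034 in clone 3 and 53.9 and 94.2 in clone 4, the same order of the clones as for ABCA1 and ABCG1.

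Glutathione synthesis and conjugation genes, which supply substrates of the ABCC pumps, were higher in 2 and lower in 5 of 16 tested (median -0.43), against 12.4% and 13.2% of all genes. Both subunits of the first enzyme of glutathione synthesis rose, GCLM from 1045 to 2080 ± 205 (log2 fold change 0.99, SE 0.21, DESeq2 adjusted p 4.15e-05) and GCLC from 773 to 1424 ± 231 (0.88, SE 0.28, adjusted p 0.0105), the latter a call lost in edgeR (adjusted p 0.0763). The glutathione transferase genes GSTO1 (2934 to 1300 ± 81.2) and GSTA4 (829 to 199 ± 40.5) fell, by log2 fold changes of -1.17 (DESeq2 adjusted p 1e-09) and -2.06 (adjusted p 6.43e-08). Of 12 tested uptake and exchange carriers, 3 were higher and 3 lower (median 0.20), again beside 12.4% and 13.2% of all genes. SLCO4A1 fell from 7479 to 2157 ± 131 (-1.79, SE 0.17, DESeq2 adjusted p 9.17e-25), and the organic cation transporter SLC22A3 from 371 to 7.57 ± 3.62 (-5.60, SE 0.64, adjusted p 5.24e-16). The related SLC22A2 rose, with 3.02 in parental cells, 31.5 and 32.6 in clone 3 and 128 and 166 in clone 4 (DESeq2 adjusted p 0.00189, edgeR adjusted p 0.105). The exporter SLC47A1 fell from 164 to 18.7 ± 10.8 (-3.13, SE 0.83, adjusted p 0.00162).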

How the data were processed

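RNA-seq was performed on 5 libraries of total RNA (stranded kit, 75 bp paired-end reads). The authors aligned reads to hg19 with Bowtie2 and estimated counts per gene with RSEM (version 1.2.3 in the submitters' processing notes). The deposited values are these expected counts, not normalized; all were whole numbers and were used as they stood. Strand use in counting is not stated, and RSEM divides reads shared by related or overlapping genes by estimation. Groups and clone numbers came from the labels.

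Symbols, coordinates and GC content came from GENCODE release 44 on GRCh37, the assembly of hg19 (29203 of 30476 identifiers, 95.8%, matched). DESeq2 1.42.0 (R 4.3.3) was fitted to all genes with its median-of-ratios factors and Wald test (two-sided). A call is a Benjamini-Hochberg adjusted p under 0.05 over all genes, and members were read from these fits. Normalized counts are counts divided by the DESeq2 size factors. Clone 4 against clone 3 used the 4 EIR libraries with treatment as covariate. Alternatives were edgeR 4.0.16 (quasi-likelihood test), TMM and total count scaling, GC-corrected factors, a filter of at least 10 counts in at least 2 libraries, an absolute log2 fold change of at least 1, summed clones, each EIR library left out, and the clone as replicate block. The clone number pairs treated and untreated libraries of the same clone (correlation of deviations 0.862 over 11564 genes). Ratios at 3 counts or fewer carry 95% exact conditional intervals. The fits were tested on simulated counts.

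The members, roles and lists were chosen with earlier results of these data known. Every member with an adjusted p under 0.05 could be named, at most 4 genes per related list by smallest adjusted p, and the 3 nearest expressed genes on each side of a member; EPCAM, KCNJ11, APOE and the other markers named were chosen after their values were seen. Some members and sequences are counted in the totals but not reported here.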

Additional observations from a re-analysis of the deposited data

Results flagged for a closer look

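ABCC2 in GSK126-treated clone 4, with 318 normalized counts, stood apart from the other EIR libraries (207, 218 and 221) by Dixon's criterion at the 95% level. Chance alone flags about 1 in 20 such groups.

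The difference from parental cells was not the same in both clones for 7 members, by the DESeq2 test of clone 4 against clone 3. On the log2 scale, clone 4 minus clone 3 was -5.74 for ABCB1, -3.05 for ABCG1, -2.57 for ABCA1 and -1.40 for ABCA3. It was 0.87 for ABCA12, 0.90 for ABCF3 and 0.81 for ABCB6.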

How the results depend on the processing

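No member called in a main comparison reversed its direction under any alternative run. For EIR against parental cells 17 members were called in the main analysis, 11 with GC-corrected factors, 10 with edgeR, 7 with the libraries of each clone summed, 10 with a log2 fold change of at least 1, and 12 to 17 when each EIR library was left out. For clone 3 against parental cells the 18 calls became 10 with a log2 fold change of at least 1 and 9 to 18 with a library left out, the lowest without treated clone 3. For clone 4 against parental cells the 18 calls became 11 with a log2 fold change of at least 1 and 10 to 14 with a library left out, the lowest without treated or untreated clone 3. Between the clones the 7 calls became 4 with a log2 fold change of at least 1 and 2 to 9 with a library left out, the lowest without treated clone 3; these fits had no treatment covariate. Fewer libraries lower the power of these fits, and the cause of the other losses was not tested. For EIR against parental cells, 25.5% of all genes passed in the main analysis, 19.5% with GC-corrected factors and 11.1% with edgeR. Shares of all genes under the other alternatives named here are not given. Whether members lost more calls than other genes therefore cannot be read from these counts. For GSK126-treated against untreated cells the number of calls was 0 in all alternatives run, including the replicate block that pairs the libraries of a clone. Over single members, 135 of 187 results kept their call for EIR against parental cells, 152 of 180 for clone 3, 139 of 180 for clone 4 and 64 of 77 between the clones. With 1 parental library and 2 clones, the spread covers these cultures alone.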
